A study of Macaca mulatta with 2 samples.

Results

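The 35 genes described here encode the non-collagen part of the extracellular matrix: fibronectin, fibrillin and fibulins, laminins and nidogens, matricellular proteins, proteoglycans, and proteins known from cartilage and bone. They were taken by name from a fixed list, and all 35 were found among the 24037 features of the 2 count matrices, 33 by a symbol in the files and 2 (FBN1 and SPON2) through a reference table of gene names. Both matrices are single-cell RNA libraries of trabecular meshwork from the rhesus macaque (Macaca mulatta), 1 labelled glaucoma and 1 labelled normal. The labels give these words as the genotype, name no gene or induction, and do not state strain, age, sex, eye pressure, or how many animals or eyes were pooled. Tissue of both groups was digested with 5 mg collagenase at 37 °C for 20 minutes, passed through a 70 µm filter and loaded for 10000 cells. Since each group is 1 library, nothing was tested between groups, and what the label names cannot be told apart from other differences between the 2 tissues.

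The trabecular meshwork is the tissue in the angle of the eye through which aqueous humour drains, built of beams covered by cells, with a looser layer next to Schlemm's canal. Its matrix is turned over by the cells themselves, and resistance to outflow lies largely in that matrix and the adjoining canal wall. Elastic fibres are assembled on fibrillin microfibrils with the help of fibulins and lysyl oxidases, laminins and nidogens form basement membranes with perlecan, and small leucine-rich proteoglycans such as decorin bind collagen fibrils. Matricellular proteins such as thrombospondin and SPARC bind matrix and cell receptors without being structural themselves.

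After filters 8337 glaucoma and 5385 normal cells remained, with medians of 2751 and 2702 UMIs (unique molecular identifiers, each counting 1 captured RNA molecule). The libraries shared 17 barcodes, 11 of them among the kept cells. The 35 genes gave 2.98% of kept glaucoma UMIs and 2.17% of kept normal UMIs, of which MGP alone gave 2.42% and 1.45%. Cells were clustered without the 35 genes, and a cluster was called "like" a cell type from a list of other markers. Trabecular meshwork-like cells carried the meshwork markers at a summed 28538 and 30681 CPM (UMIs per 1000000 UMIs of the class), with all 12 markers detected in both libraries, against 4916 and 4740 CPM in stromal fibroblast-like cells. One of the 5 meshwork clusters, cluster 2, held 9 meshwork but also 8 stromal fibroblast markers, with GPHA2 and KRT19 among its leading genes. Values are given as glaucoma against normal. Brackets hold exact 95% intervals that cover counting error only, except beside a median over members. There they hold the medians of the members' own lower and upper limits, which are no interval for the median itself.

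Levels were compared across the 12 classes with enough cells in both libraries, and each gene was placed in the class whose lower library was highest. Stromal fibroblast-like cells came first for 12 of the 35 genes, trabecular meshwork-like cells for 7, non-myelinating Schwann cell-like cells for 5 and lymphatic-type endothelium-like cells for 4. Myelinating Schwann cell-like and pericyte-like cells came first for 2 each, and melanocyte-like, muscle-like and vascular endothelium-like cells for 1 each. The same class came first in each library taken alone for 26 genes, and for 23 genes its interval was apart from that of the next class in both libraries. The matrix genes were thus spread over fibroblast, neural, mural and endothelial cells.

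**Figure D1:**
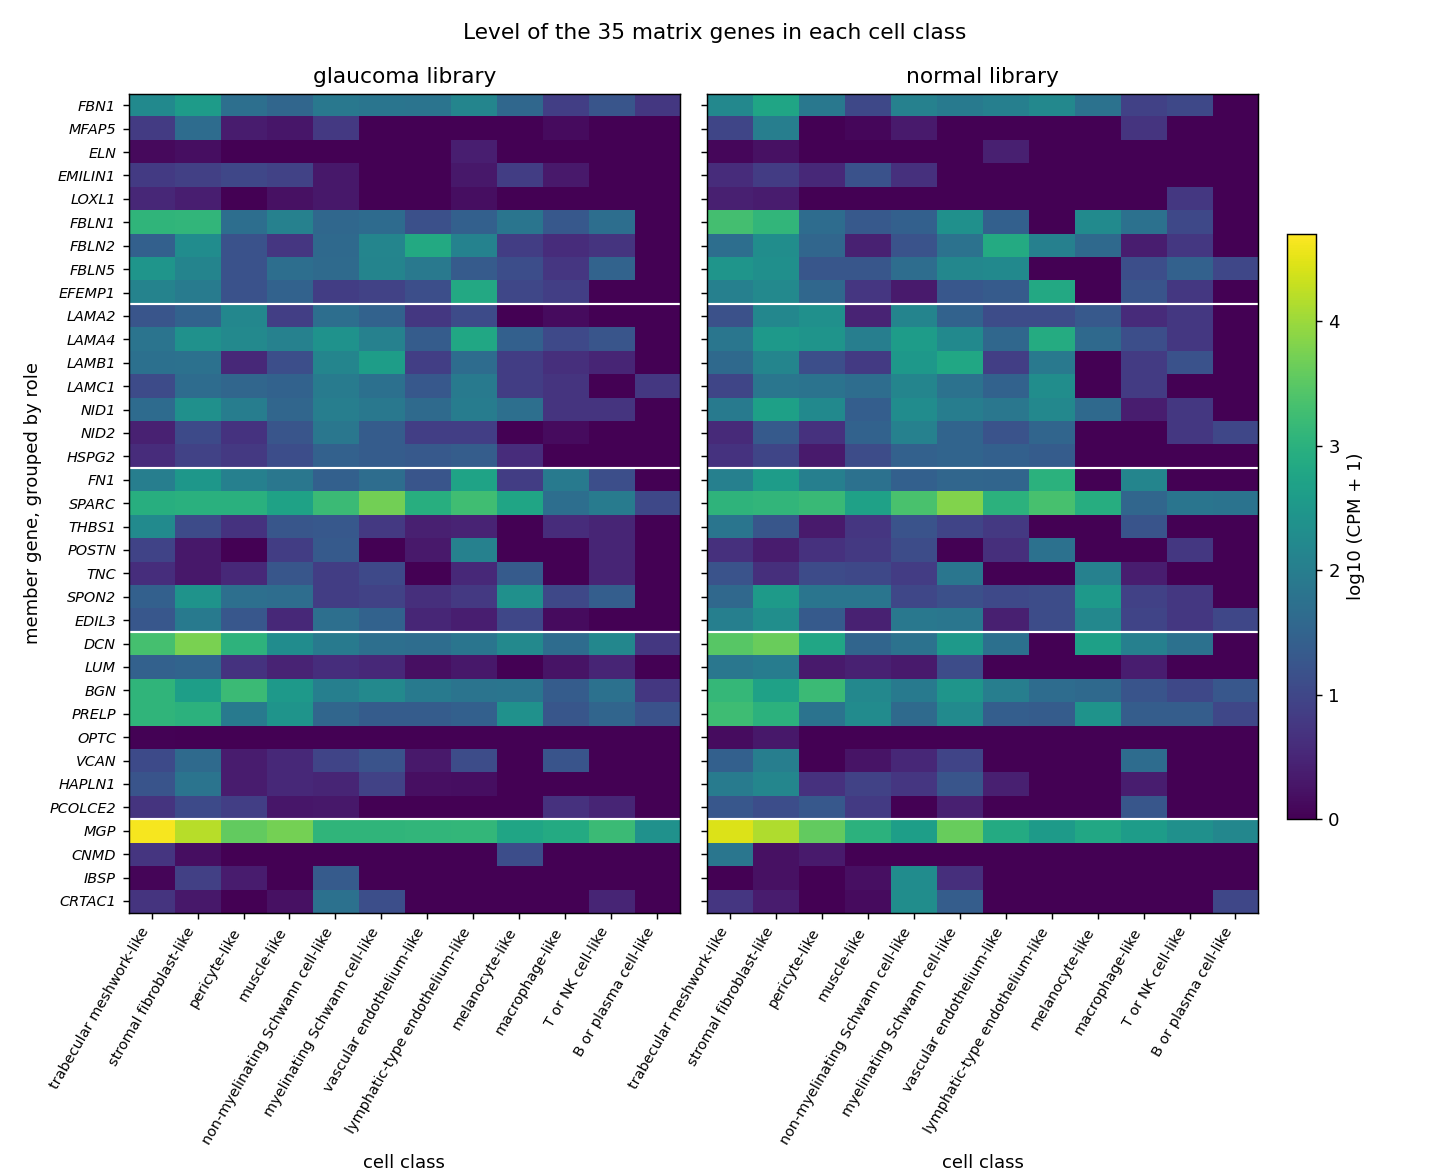
Level of each of the 35 genes (rows, grouped by role with white lines between elastic fibre, basement membrane, fibronectin and matricellular, proteoglycan, and mineral or cartilage-type genes) in 12 cell classes (columns), as log10 (CPM + 1), with the glaucoma library on the left and the normal library on the right. The proteoglycan group also holds HAPLN1 and PCOLCE2, which are not proteoglycans. MGP is bright in the trabecular meshwork-like column (42908 CPM in glaucoma and 28070.0 CPM in normal), and the laminin rows are brightest in Schwann, endothelial and pericyte columns.

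Elastic fibre genes split between fibroblast, meshwork and endothelial cells. FBN1, fibrillin 1 of the microfibrils, stood highest in stromal fibroblast-like cells at 381 [354, 409] CPM in glaucoma and 587 [559.9, 615] CPM in normal, while 166 against 154 CPM were found in trabecular meshwork-like cells. MFAP5, a microfibril glycoprotein, was highest in the stromal class too, at 45.2 [36.3, 55.7] CPM in glaucoma and 102 [91, 114] CPM in normal. Its small cluster 20 (21 and 37 cells) held 478 [296, 730.5] against 617 [468, 797] CPM, and meshwork cluster 2 held 29.4 against 14.3 CPM. FBLN1, a fibulin that binds fibronectin and elastin, was high in both fibroblast-type classes. In stromal fibroblast-like cells it was at 1247 against 1218 CPM and in trabecular meshwork-like cells at 1189 against 1940.4 CPM, so the class that came first differed between the libraries.

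FBLN2 was instead a gene of vascular endothelium-like cells, at 727 [689, 766] CPM in glaucoma and 757 [689.8, 829.6] CPM in normal. Their smaller cluster 17 (64 and 59 cells), with FCN3 and GJA5 among its leading genes, was the higher of 2, at 1239.6 [1063, 1437] against 1753 [1479, 2063] CPM. FBLN5, which helps to assemble elastic fibres, was highest as a class in trabecular meshwork-like cells (279 [270.1, 288] CPM in glaucoma and 282 [271, 293] CPM in normal), with no difference between the libraries beyond counting error. As a single cluster, however, cluster 17 held more, at 803 [662, 965] against 1039.8 [832, 1284] CPM. EFEMP1, fibulin 3, led in lymphatic-type endothelium-like cells at 683 [647, 720.2] CPM in glaucoma and 672 [512, 864] CPM in normal, where the normal library had 33 cells.

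The remaining elastic fibre genes were scarce. ELN, elastin itself, gave 18 UMIs over all kept cells and LOXL1, the lysyl oxidase tied to exfoliation glaucoma, gave 65, of which 31 and 14 lay in trabecular meshwork-like cells. EMILIN1, a microfibril-linked glycoprotein, gave 266, with its highest class muscle-like cells at 7.6 [4.87, 11.3] CPM in glaucoma and 14.2 [11.2, 17.9] CPM in normal, though pericyte-like cells came first in glaucoma alone. At such counts no difference between the libraries in ELN or LOXL1 was detectable.

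Basement membrane genes were spread over endothelial, Schwann, pericyte and fibroblast-type cells. LAMA4, the laminin alpha 4 chain of vessel walls, was highest in lymphatic-type endothelium-like cells at 617 [583, 652] CPM in glaucoma and 783 [611, 989.9] CPM in normal, then in non-myelinating Schwann cell-like cells at 247 against 399 CPM. LAMA2, the alpha 2 chain of muscle and nerve, was highest as a class in pericyte-like cells at 146 [121, 176] CPM in glaucoma and 229 [198, 265] CPM in normal. Stromal cluster 20 exceeded that, at 432 [260.3, 675] against 723 [561, 916] CPM. LAMB1, the beta 1 chain, was highest in myelinating Schwann cell-like cells at 418 [357, 486] CPM in glaucoma and 629 [568, 695] CPM in normal.

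LAMC1, the gamma 1 chain common to most laminins, held 87.8 against 136 CPM in non-myelinating Schwann cell-like and 84.5 against 201 CPM in lymphatic-type endothelium-like cells, so the first class differed between the libraries. NID1, nidogen 1, which links laminin to collagen IV, was highest in stromal fibroblast-like cells at 226 [206, 248] CPM in glaucoma and 474 [449.5, 499] CPM in normal. Its relative NID2 was instead highest in non-myelinating Schwann cell-like cells at 71.5 [55.7, 90.3] CPM in glaucoma and 115 [93.6, 140.0] CPM in normal, with 10.2 against 20.3 CPM in the stromal class. HSPG2, perlecan, the heparan sulphate proteoglycan of basement membranes, was low everywhere. Its highest class, non-myelinating Schwann cell-like cells, held 27.6 against 27.6 CPM from 27 and 24 UMIs, which was not apart from lymphatic-type endothelium-like cells at 22.9 against 22.4 CPM.

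Fibronectin and the matricellular genes had different homes. FN1, fibronectin, was highest in lymphatic-type endothelium-like cells at 528 [496, 560.3] CPM in glaucoma and 985 [789.9, 1213] CPM in normal, then in stromal fibroblast-like cells at 305 against 394 CPM, and stood lower in trabecular meshwork-like cells at 101 against 110.1 CPM. SPARC, which binds collagen and is known to affect outflow, was highest in myelinating Schwann cell-like cells at 4973 [4758, 5195] CPM in glaucoma and 6461 [6261, 6666] CPM in normal, while 898 against 1129 CPM were found in trabecular meshwork-like cells. THBS1, thrombospondin 1, an activator of latent TGF-beta, was mainly a meshwork gene at 175 [168, 182] CPM in glaucoma and 67.5 [62.2, 73.1] CPM in normal, with the next class at 18.4 against 15 CPM. POSTN, periostin, was highest in lymphatic-type endothelium-like cells at 117 [102, 133] CPM in glaucoma and 56 [18.2, 131] CPM in normal, where 1 barcode held 22.1% of the glaucoma UMIs and the normal level rests on 5 UMIs.

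TNC, tenascin C, came first in melanocyte-like cells at 21.1 [8.48, 43.4] CPM in glaucoma and 117 [42.9, 255] CPM in normal, but from only 7 and 6 UMIs. In muscle cluster 8, led by RERGL and ACTG2, TNC reached 53.8 [40.2, 70.6] against 38.2 [28.1, 50.6] CPM from 52 and 48 UMIs. SPON2, a spondin of the matrix, was highest in stromal fibroblast-like cells at 264 [242, 288] CPM in glaucoma and 357 [337, 379] CPM in normal, with melanocyte-like cells close at 226 against 331 CPM. EDIL3, an integrin ligand with a discoidin domain, was highest in stromal fibroblast-like cells too, at 81.3 [69.2, 95] CPM in glaucoma and 209 [193, 226] CPM in normal.

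Among proteoglycans DCN, decorin, was the main stromal gene at 5663 [5558, 5769] CPM in glaucoma and 4167 [4095, 4239.8] CPM in normal, and trabecular meshwork-like cells held 2021 against 2968 CPM. BGN, biglycan, its nearest relative, was highest in pericyte-like cells instead, at 1579 [1492, 1669] CPM in glaucoma and 1574 [1489, 1663] CPM in normal, with trabecular meshwork-like cells at 1165 against 1324 CPM. PRELP, which anchors basement membranes to collagen, was highest in trabecular meshwork-like cells at 1197 [1178, 1216] CPM in glaucoma and 1762 [1735, 1789.6] CPM in normal. LUM, lumican, the keratan sulphate proteoglycan of the cornea, was low, at 32 [24.6, 41] CPM in glaucoma and 91.9 [81.5, 103] CPM in normal in stromal and 27.8 against 70.7 CPM in trabecular meshwork-like cells. OPTC, opticin, gave 9 UMIs in all kept cells.

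VCAN, the large hyaluronan-binding proteoglycan versican, was highest as a class in stromal fibroblast-like cells at 41.7 [33.2, 51.7] CPM in glaucoma and 102 [90.7, 114] CPM in normal. Cluster 20 stood above the class average at 296 [158, 506] against 914 [731, 1129] CPM, and an unnamed cluster of 16 and 17 cells marked by CFD, S100A8 and S100A9 was at 579.7 [354, 895] against 381 [226, 601] CPM. HAPLN1, the link protein that ties such proteoglycans to hyaluronan, was highest in the stromal class too, at 64.1 [53.4, 76.3] CPM in glaucoma and 145 [132, 159] CPM in normal. PCOLCE2, an enhancer of procollagen processing, was at 10.2 [6.21, 15.7] CPM in glaucoma and 11.8 [8.25, 16.3] CPM in normal there, not apart from pericyte-like cells at 6.36 against 18.4 CPM.

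MGP, matrix Gla protein, an inhibitor of calcification, was highest in trabecular meshwork-like cells at 42908 [42796, 43021] CPM in glaucoma and 28070.0 [27961, 28179] CPM in normal, 4.29% and 2.81% of all UMIs of the class. Stromal fibroblast-like cells came next at 15699 [15524, 15875] CPM in glaucoma and 13675 [13544, 13806] CPM in normal. CNMD, chondromodulin, an angiogenesis inhibitor of cartilage, came first in the meshwork class in the normal library, while in the glaucoma library 4 UMIs put melanocyte-like cells first. Of the meshwork clusters it lay mostly in cluster 12 (141 and 347 cells, led by PLA2G2A and CYTL1), at 40.7 [30.1, 53.8] against 174 [161, 189] CPM. That cluster held 49 of 56 glaucoma and 591 of 630 normal CNMD UMIs of the class. IBSP, bone sialoprotein, and CRTAC1, cartilage acidic protein 1, are known from bone and cartilage but were here genes of non-myelinating Schwann cell-like cells. There IBSP stood at 21.5 [13.3, 32.8] CPM in glaucoma and 189.9 [162, 221] CPM in normal and CRTAC1 at 55.2 [41.4, 72] CPM in glaucoma and 199 [171, 231] CPM in normal. The 7 chondrocyte markers summed to 85.8 and 174 CPM in that class, with COL2A1 and MATN3 at 0 in both libraries, and their part in these levels was not tested.

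Across the clusters some members shared a pattern, given as a description over 46 profiles (23 clusters in each library), which share library and depth. Each of the 22 members with enough UMIs was matched to the one with the highest Pearson correlation of log levels. The closest pairs were FBLN1 with PRELP (r = 0.91), MGP with BGN (0.90), DCN with FBLN1 (0.89), LAMA4 with LAMC1 (0.86) and NID1 with LAMA4 (0.86). In the gene order of the RefSeq assembly T2T-MMU8v2.0, LUM and DCN are neighbours with no coding gene between, as are PRELP and OPTC. VCAN, HAPLN1 and EDIL3 lie side by side in that order. LUM was closest to DCN (0.84) and EDIL3 to HAPLN1 (0.81), but HAPLN1 was closest to LUM (0.84), outside that trio, and VCAN reached 0.59 with HAPLN1.

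The comparison of the libraries asked which of these genes differed between glaucoma and normal within a class. The log2 ratio of CPM (glaucoma over normal) was taken for genes with at least 100 UMIs, in the 9 classes that had 50 or more kept cells from both groups. A gene is called higher or lower when it differed 2-fold or more with an interval that did not hold a ratio of 1. The share of all genes called the same way is given beside each count, except for counts under changed settings.

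In trabecular meshwork-like cells the glaucoma library had more thrombospondin 1 and less chondromodulin and EDIL3. Periostin was also called higher, but that call held in only 4 of 10 alternatives. Link protein and tenascin C were also among the genes called lower. Without cluster 2, the cluster with mixed markers, both fell under 100 UMIs and were not measured. Of 27 members measured in the whole class 2 were called higher, where 5.21% of all 8808 measured genes were, and 7 were called lower, where 6.05% were. Their median log2 ratio was -0.51 [-0.58, -0.28] beside -0.04 over all genes. With doublets kept in the clustering the median turned to 0.037, 5 members were called, and VCAN turned to 0.45. CNMD differed most, at 4.31 [3.26, 5.6] against 69.7 [64.4, 75.4] CPM (log2 ratio -4.01 [-4.44, -3.62]), with UMIs in 19 glaucoma and 134 normal cells. HAPLN1 stood at 15.3 [13.3, 17.6] against 90.4 [84.3, 96.8] CPM (-2.56 [-2.79, -2.34]) and its neighbour EDIL3 at 18 [15.8, 20.5] against 106 [99.5, 113] CPM (-2.56 [-2.77, -2.35]). TNC, PCOLCE2, VCAN and LUM were the other lower genes, with log2 ratios of -2.22 [-2.76, -1.71], -2.14 [-2.62, -1.68], -1.38 [-1.7, -1.07] and -1.35 [-1.54, -1.16].

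THBS1 was the well-covered higher gene, at 175 [168, 182] against 67.5 [62.2, 73.1] CPM (1.37 [1.24, 1.5]), with UMIs in 1070 and 368 cells. POSTN rested on 104 and 32 UMIs, 8.01 against 3.54 CPM (1.18 [0.59, 1.8]), and 1 barcode held 15.4% and 21.9% of them. The POSTN call was kept in 4 of 10 alternatives and was weaker in 6, with ratios from 0.35 to 1.46. The abundant genes moved less. MGP was at 0.61 [0.61, 0.62], FBLN1 at -0.71 [-0.74, -0.68], DCN at -0.55 [-0.58, -0.53], PRELP at -0.56 [-0.59, -0.53], BGN at -0.18 [-0.22, -0.15] and SPARC at -0.33 [-0.37, -0.29]. FN1 (-0.12 [-0.24, -0.0023]), FBLN5 (-0.01 [-0.09, 0.06]) and LAMA4 (-0.08 [-0.23, 0.08]) hardly differed between the libraries.

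The 2 libraries filled the meshwork class with different clusters, and the ratios of the called members were nearer to level with equal cluster weights. The clusters were themselves made from both libraries together, and their part in the ratios was not tested. The glaucoma cells lay mainly in clusters 3 (972 cells), 10 (590) and 2 (559), the normal cells in clusters 2 (716) and 12 (347), with 156 and 15 normal cells in clusters 3 and 10. With each cluster given the same weight in both libraries, the called members were 5, all lower: CNMD (-2.2), TNC (-1.22), EDIL3 (-1.11), PCOLCE2 (-1.1) and HAPLN1 (-1.07). THBS1 then stood at 0.62, POSTN at 0.52, LUM at -0.65 and VCAN at -0.39, and MGP at 0.02. These values include cluster 10, with its 15 normal cells. Without cluster 2, with its mixed markers, 4 of 22 measured members were called, POSTN and THBS1 higher and EDIL3 and CNMD lower. The median was -0.0235. HAPLN1, TNC, PCOLCE2 and VCAN fell under 100 UMIs there, so their calls could not be checked.

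**Figure D2:**
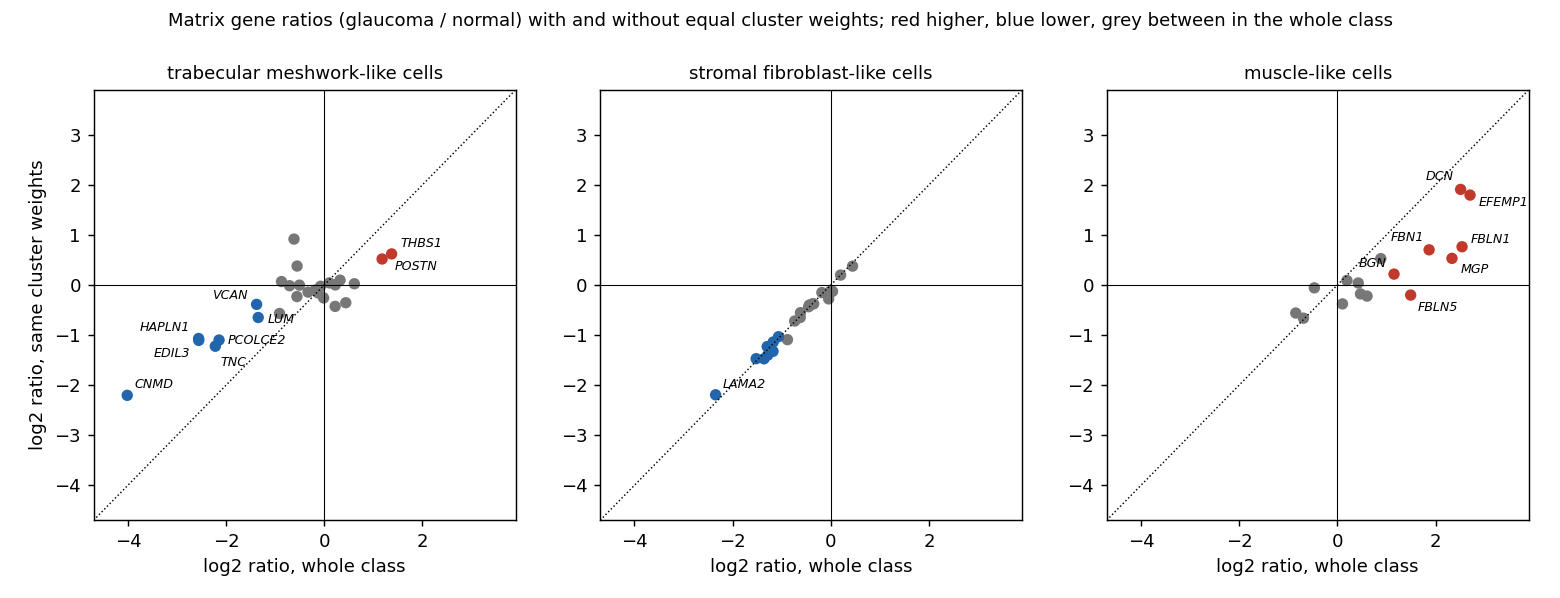
Each point is 1 measured member; the horizontal axis is its log2 ratio (glaucoma over normal) in the whole class and the vertical axis the ratio with clusters weighted equally in both libraries; the dotted line marks equal values. In trabecular meshwork-like cells CNMD moved from -4.01 to -2.20 and THBS1 from 1.37 to 0.62, in stromal fibroblast-like cells the points lie near the line, and in muscle-like cells FBLN5 crossed from 1.49 to -0.20.

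For decorin the class and its clusters went in different directions. In the whole class DCN was lower in the glaucoma library (2021 against 2968 CPM), yet cluster by cluster it was higher there in 4 of 5. It stood at 5600.1 against 4258 CPM in cluster 2 (0.40 [0.36, 0.43]), 1564 against 1231 CPM in cluster 3 (0.35 [0.26, 0.43]), 2440.4 against 2076 CPM in cluster 12 (0.23 [0.17, 0.30]) and 521 against 123 CPM in cluster 10, the last from 15 normal cells and 15 normal UMIs. Cluster 16 differed by less than its interval (-0.08 [-0.39, 0.23]). Equal weights gave 0.38.

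THBS1 kept its direction in the larger clusters except cluster 2. It was at 199 [189, 211] against 113 [93.7, 135] CPM in cluster 3 (0.82 [0.55, 1.1]), 231 [215, 248] against 139 [80.9, 222] CPM in cluster 10 (0.73 [0.04, 1.52]) and 117 [98.6, 138] against 79.9 [70.7, 90] CPM in cluster 12 (0.55 [0.25, 0.85]), but at 48.3 against 46.4 CPM in cluster 2 (0.06 [-0.30, 0.41]). None of these reached 2-fold. VCAN, lower in the class, was higher in cluster 3 on few UMIs (53 and 3 UMIs, 8.42 [6.31, 11] against 2.82 [0.583, 8.26] CPM), and lower in cluster 2 (-0.54 [-0.93, -0.17]). MGP also split: it was lower in the glaucoma library in cluster 2, at 21467 against 28760.5 CPM (-0.42 [-0.44, -0.41]), and higher in clusters 3, 10, 12 and 16, by log2 ratios between 0.13 and 0.42.

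Cluster 2 carried most UMIs of the lower genes other than CNMD: it held 184 glaucoma and 793 normal UMIs of HAPLN1 and 203 and 888 of EDIL3, while the other 4 clusters together held few of either. There HAPLN1 stood at 88.8 [76.5, 103] against 186 [173, 199] CPM (-1.06 [-1.3, -0.83]), EDIL3 at 98 [85, 112] against 208 [195, 222] CPM (-1.09 [-1.31, -0.86]), PCOLCE2 at 14.5 against 32.3 CPM (-1.16 [-1.78, -0.58]) and TNC at 12.6 against 26.5 CPM (-1.08 [-1.75, -0.45]). These were the 4 members called lower of 23 measured, where 4.32% of all genes were, and MFAP5 was the 1 called higher (29.4 against 14.3 CPM, 1.04 [0.51, 1.58]), where 2.24% were. In cluster 12 CNMD (-2.1 [-2.55, -1.68]) and NID1 (13.3 against 39.5 CPM, -1.57 [-2.42, -0.82]) were the 2 lower of 15, where 7.59% of all genes were, and 0 were higher, where 1.53% were; cluster 3 had no call among 18, where 2.82% were higher and 4.94% lower.

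An unnamed cluster, cluster 9 (618 glaucoma and 66 normal cells), carried 8 meshwork and 7 stromal markers and was led by WIF1, ITGBL1 and BMP3. MGP stood there at 53917 [53595, 54240.2] against 38924 [38003, 39861] CPM and DCN at 2595 [2524, 2666] against 1811 [1617, 2022] CPM. LAMA2 (45.2 against 120.4 CPM, log2 ratio -1.41 [-2.11, -0.65]) and EFEMP1 (70.3 against 143 CPM, -1.03 [-1.65, -0.35]) were the 2 members lower in the glaucoma library among 17 measured, where 7.98% of all genes were, and 0 were higher, where 4.72% were. LAMA2 in the meshwork class was at 16.2 against 13.9 CPM. FBLN5 was lower by less than 2-fold, at 386 [359, 415] against 757 [633, 897] CPM (-0.97 [-1.24, -0.69]). Below the minimum of 100 UMIs, POSTN stood at 30.1 [23, 38.8] against 183 [125, 259] CPM and EDIL3 at 22.1 [16.1, 29.7] against 195 [135, 272] CPM, so POSTN was lower here in the library where the named meshwork class had it higher.

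**Figure D3:**
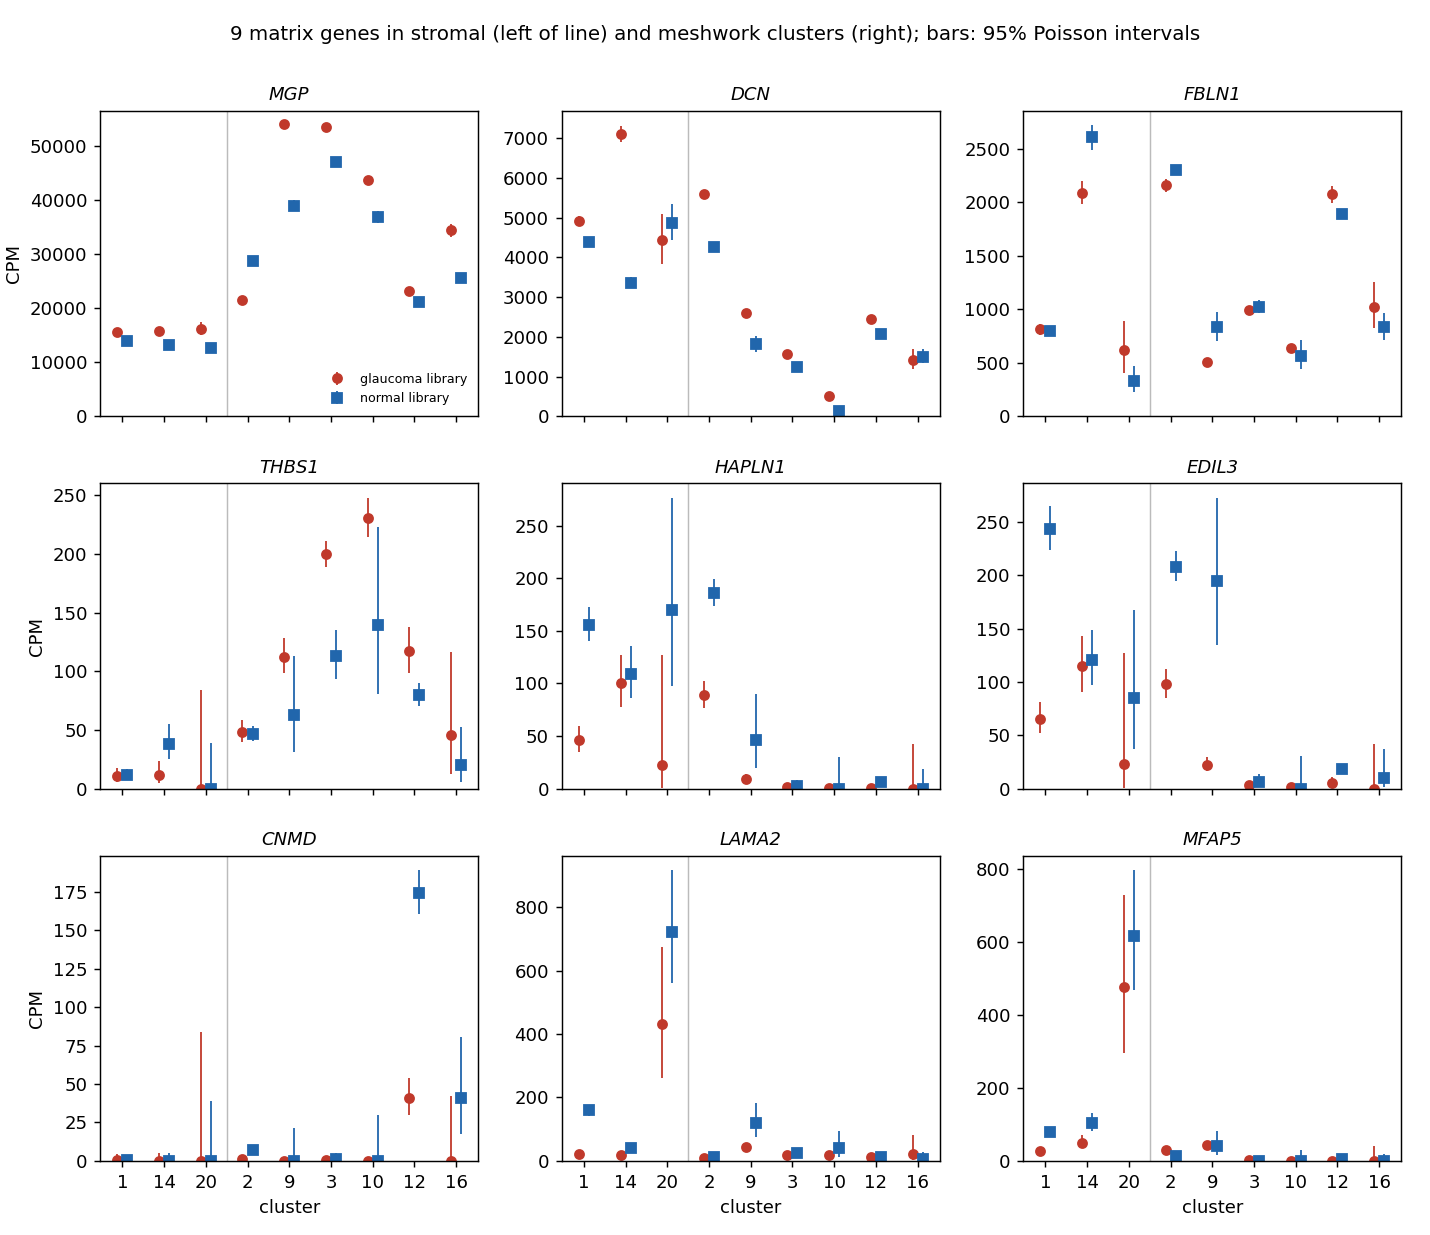
CPM of 9 members in the stromal fibroblast-like clusters 1, 14 and 20 (left of the grey line) and, right of it, the meshwork clusters 2, 3, 10, 12 and 16 with the unnamed cluster 9; red circles are the glaucoma library, blue squares the normal library, and bars are 95% Poisson intervals. HAPLN1 and EDIL3 are lower in the glaucoma library in clusters 1 and 2, CNMD stands out in cluster 12 (40.7 against 174 CPM), and DCN lies above the normal library in cluster 14.

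Stromal fibroblast-like cells had a one-sided result: of 22 members measured 8 were called lower and 0 higher in glaucoma, where 6.34% of 6068 genes were lower and 2.01% higher. The median log2 ratio of the members was -0.62 [-0.85, -0.40], beside -0.16 over all genes of the class. The lower genes were 3 of the basement membrane, 2 proteoglycans, the link protein, EDIL3 and the microfibril gene MFAP5. LAMA2 differed most, at 29 [21.9, 37.5] against 148 [134, 162] CPM (-2.35 [-2.77, -1.95]), LAMB1 stood at 55.4 [45.5, 66.8] against 136 [123, 149.8] CPM (-1.3 [-1.61, -0.99]) and NID1 at 226 [206, 248] against 474 [449.5, 499] CPM (-1.07 [-1.22, -0.91]).

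The 3 genes that lie side by side in the genome order were all lower: VCAN at 41.7 against 102 CPM (-1.29 [-1.66, -0.93]), HAPLN1 at 64.1 against 145 CPM (-1.18 [-1.47, -0.89]) and EDIL3 at 81.3 against 209 CPM (-1.36 [-1.62, -1.11]). LUM was at -1.52 [-1.94, -1.12] and MFAP5 at -1.17 [-1.53, -0.83]. DCN went the other way without reaching 2-fold, at 5663 [5558, 5769] against 4167 [4095, 4239.8] CPM (0.44 [0.41, 0.48]), while FBLN1 (0.03 [-0.04, 0.11]) and PRELP (-0.02 [-0.10, 0.06]) hardly differed. A scaling by the median of the gene ratios left 7 of the 8 calls, with NID1 at -0.90 and the member median at -0.46.

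In cluster 1 (563 and 877 cells, with PI16 and C7 among its leading genes) the same 8 were called lower of 22 measured, where 8.55% of all genes were; 0 were higher, where 2.03% were. LAMA2 there was at 20.9 [13.7, 30.6] against 159 [143, 176] CPM (-2.93 [-3.56, -2.35]), VCAN at -1.94 [-2.66, -1.29], EDIL3 at -1.9 [-2.26, -1.56] and HAPLN1 at -1.77 [-2.2, -1.36]. In cluster 14 (232 and 208 cells) EDIL3 was nearly level, at 115 [90.8, 143] against 121 [97.1, 149] CPM, and so was HAPLN1, at 100.1 [77.7, 127] against 109 [86.2, 135] CPM. That cluster had EFEMP1 (165 against 435 CPM, -1.4 [-1.72, -1.08]) and MFAP5 (-1.06 [-1.69, -0.46]) lower of 18 measured, where 5.91% of all genes were. It had DCN higher (7119.8 against 3361 CPM, 1.08 [1.01, 1.15]), where 3.53% were.

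In non-myelinating Schwann cell-like cells IBSP, CRTAC1 and the laminin chains LAMB1 and LAMA2 were lower in the glaucoma library. Of 14 members measured 4 were lower, where 5.31% of 3410 genes were, and 1 was higher, where 2.9% were; the median was -0.66 [-1.07, -0.30] beside -0.02 over all genes. IBSP differed most (-3.15 [-3.88, -2.49]), with a UMI in 17 of 874 glaucoma and 103 of 574 normal cells, and CRTAC1 (-1.85 [-2.32, -1.4]) in 42 and 128 cells. LAMB1 stood at 139 [117, 164] against 325 [288, 365] CPM (-1.22 [-1.53, -0.92]) and LAMA2 at 48 [35.3, 63.8] against 131 [108, 158] CPM (-1.45 [-1.97, -0.95]). The other basement membrane genes measured, NID1 (-0.91 [-1.29, -0.55]), LAMA4 (-0.69 [-0.93, -0.45]), NID2 (-0.69 [-1.15, -0.23]) and LAMC1 (-0.63 [-1.05, -0.22]), were lower by less than 2-fold. The median depth of these cells was 965 UMIs in the glaucoma and 1312 in the normal library, and their own markers summed to 7789 and 11369 CPM. The part of either in these ratios was not tested.

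MGP was the higher gene of that class, at 1202 [1135, 1273] against 439 [396, 485] CPM (1.46 [1.29, 1.63]). Meshwork markers moved with it, at a summed 1100 and 739 CPM over 12 markers, with BMP3 at 0 in the glaucoma library and TMEFF2 and FMOD at 0 in the normal library, and their part was not tested. Myelinating Schwann cell-like cells had 4 of 9 measured members lower, where 4.87% of 1685 genes were, and 0 higher, where 2.02% were. These were PRELP (22.3 against 179 CPM, -3.01 [-4.17, -2.03]), DCN (52 against 345 CPM, -2.73 [-3.45, -2.08]), FBLN1 (42.1 against 230.0 CPM, -2.45 [-3.27, -1.72]) and MGP (1205 against 4099 CPM, -1.77 [-1.91, -1.63]). MGP turned to 0.18 with the libraries clustered separately, and missed the 2-fold call with doublets kept (-0.58) and with cells thinned to 1000 UMIs (-0.80).

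A few barcodes held much of the UMIs of those 4 genes. In the normal library 17 of 242 cells held all DCN UMIs of the class, and 1 barcode held 31.0% of them. For MGP 1 barcode held 56.9% of the glaucoma and 26.4% of the normal UMIs. Meshwork markers summed to 980 and 1914 CPM in this class, with TMEFF2 and FMOD at 0 in the glaucoma library, and their part in the 4 ratios was not tested. The class's own matrix genes LAMB1 (-0.59 [-0.86, -0.32]) and SPARC (-0.38 [-0.46, -0.30]) were lower by less than 2-fold.

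**Figure D4:**
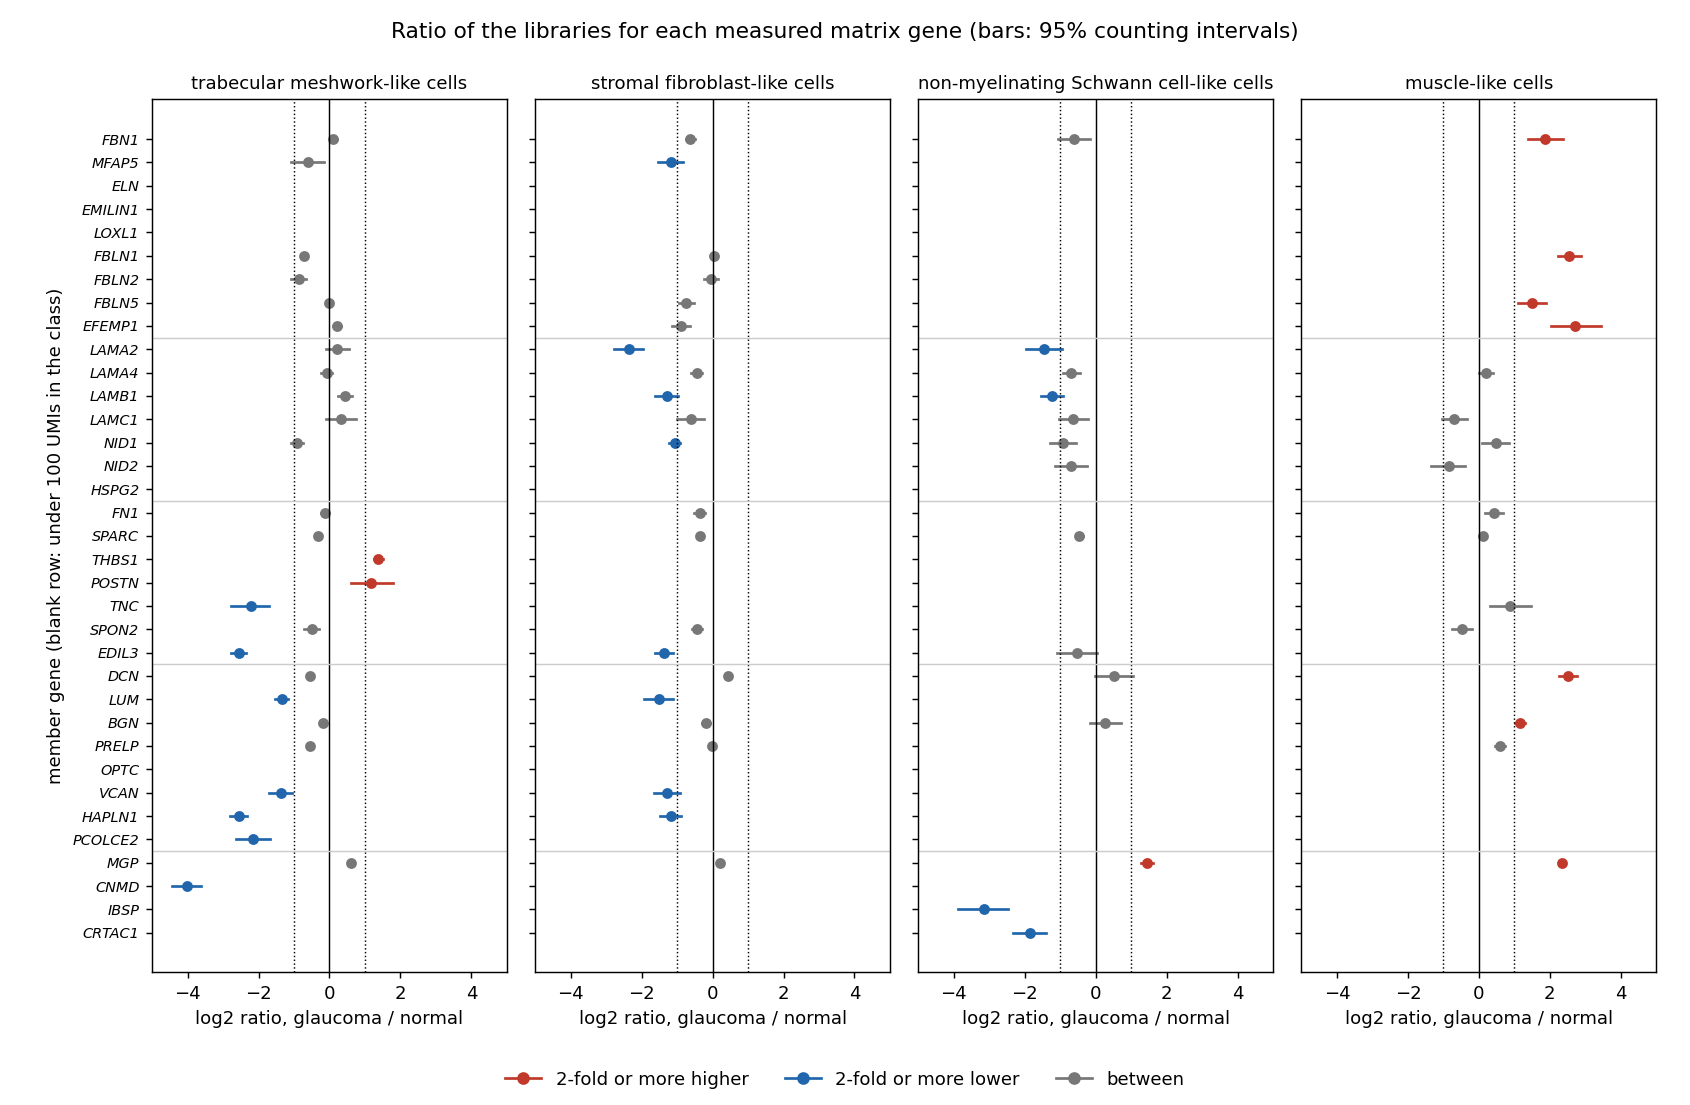
Log2 ratio (glaucoma over normal) of each measured member in 4 classes, with bars for the 95% counting interval, dotted lines at 2-fold, red for genes called higher, blue for lower and grey for between; rows without a point had under 100 UMIs in the class. The stromal fibroblast-like panel has 8 blue and no red points, and the muscle-like panel 7 red and no blue points.

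Muscle-like cells differed in the opposite direction: 7 of 16 members measured were called higher in glaucoma, where 3.28% of 6456 genes were, and 0 lower, where 3.76% were. The median was 0.74 [0.39, 1.07] beside -0.12 over all genes. The 7 were 4 elastic fibre genes, decorin, biglycan and MGP. MGP stood at 5169 [5090.3, 5249] against 1025 [997, 1053] CPM (2.33 [2.29, 2.38]), DCN at 189.8 [175, 206] against 33.3 [28.5, 38.7] CPM (2.51 [2.26, 2.76]) and FBLN1 at 115 [104, 128] against 19.8 [16.2, 24] CPM (2.54 [2.22, 2.87]). EFEMP1 (2.7 [2.03, 3.43]), FBN1 (1.87 [1.37, 2.38]), FBLN5 (1.49 [1.11, 1.89]) and BGN (1.15 [1.02, 1.29]) were the others.

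Basement membrane and matricellular genes of these cells moved less, with LAMA4 at 0.20 [-0.0033, 0.39], SPARC at 0.10 [0.01, 0.19] and LAMC1 at -0.69 [-1.05, -0.34]. Meshwork markers moved with the 7 genes, at a summed 4220 against 2041 CPM over 12 markers, with PPP1R1B at 0 in the normal library. Cluster 19 (72 and 20 cells) carried 7 meshwork beside 8 muscle markers and had MGP at 22056 against 19534 CPM. Without it 4 members were called higher, DCN (2.1), FBLN1 (1.46), MGP (1.43) and TNC (1.09), and FBN1, FBLN5 and EFEMP1 fell under 100 UMIs. With equal cluster weights 2 were, EFEMP1 at 1.8 and DCN at 1.91. Within muscle cluster 4 (266 and 631 cells, led by MYH11) MGP was at 1014 [966, 1064] against 179.6 [166, 194] CPM (2.5 [2.37, 2.63]), BGN at 70.4 against 20.3 CPM (1.79 [1.37, 2.22]) and DCN at 72.8 against 23.2 CPM (1.65 [1.24, 2.06]). These were 3 higher of 10 measured, where 2.13% of all genes were, and 0 were lower, where 4.13% were. The part of the meshwork transcripts in them was not tested.

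In the remaining classes few members crossed 2-fold. Pericyte-like cells had 0 of 10 called, where 2.51% of all genes were higher and 4.95% lower, with BGN (0.0039 [-0.11, 0.12]) and MGP (-0.002 [-0.08, 0.07]) level and DCN at 1113 against 614 CPM (0.86 [0.70, 1.02]). Vascular endothelium-like cells had 1 of 8 lower, FBLN5 (77.2 against 167 CPM, -1.12 [-1.49, -0.74]), where 1.72% were, and 0 higher, where 1.8% were. Cluster 17, which holds most FBLN5, was 64 of 639 glaucoma and 59 of 307 normal cells of that class, and equal weights gave -0.43. FBLN2, the leading vascular member, was level (-0.06 [-0.21, 0.10]). Within cluster 17 MGP reached 8579 [8104, 9074] against 3409.6 [3023, 3832] CPM (1.33 [1.14, 1.52]), the 1 higher of 3 measured members, where 3.99% of all genes were, and 0 were lower, where 5.21% were.

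Macrophage-like and T or NK cell-like cells held some MGP in both libraries. MGP was at 1587 [1477, 1702] against 225 [166, 298] CPM in T or NK cell-like cells, which is 3.70% and 0.801% of the meshwork level, and was the 1 member measured there (2.82 [2.4, 3.27]), where 5.27% of all genes were called higher and 2.51% lower. It had UMIs in 178 of 323 glaucoma and 31 of 113 normal cells, at median depths of 1352 and 1744 UMIs. Of its 777 glaucoma UMIs 1 barcode held 22.7%, and 3 cells held at least as many as all other cells together. The meshwork gene MYOC moved with MGP, at 976 and 183 CPM. Meshwork markers summed to 1097 and 239 CPM, with 3 of 12 at 0 in glaucoma (PPP1R1B, TMEFF2 and FMOD) and 9 of 12 at 0 in normal. Their part was not tested. In macrophage-like cells MGP was at 751 [718, 784] against 400.3 [355, 449] CPM and 1 of 4 measured members was lower, DCN (45.1 against 111 CPM, -1.29 [-1.72, -0.87]), where 5.6% of all genes were and 3.36% were higher. A single barcode held 67.1% of the 79 normal DCN UMIs there, and 1 barcode held 62.6% of the 286 normal MGP UMIs. The DCN ratio turned to 0.0309 with doublets kept.

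Other matrix genes, from a wider list of 79 found in the files, went both ways in the meshwork. In trabecular meshwork-like cells 3 of 53 measured were higher, where 5.21% of all genes were, and 11 lower, where 6.05% were, with a median of 0.03. The largest higher were ASPN, asporin (18.9 against 4.43 CPM, 2.1 [1.61, 2.62]), FBN2 (32.7 against 12.6 CPM, 1.37 [1.07, 1.68]) and SPP1, osteopontin (87.8 against 38.4 CPM, 1.19 [1.02, 1.37]). The largest lower were THBS4 (38.2 against 186 CPM, -2.29 [-2.43, -2.14]), CHAD, chondroadherin, which is also one of the meshwork markers (56.9 against 264 CPM, -2.21 [-2.33, -2.09]), and TGFBI (98.3 against 372 CPM, -1.92 [-2.01, -1.83]). Beside FBN2, fibrillin 1 stood at 0.10 [0.0048, 0.20], and beside THBS4, thrombospondin 1 stood at 1.37 [1.24, 1.5]; the differences within these families were not tested.

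In stromal fibroblast-like cells 3 of 37 were higher, where 2.01% of all genes were, and 8 lower, where 6.34% were, with a median of -0.20. CHAD (65.1 against 23.5 CPM, 1.47 [1.04, 1.9]), DPT, a stromal marker (44.2 against 20 CPM, 1.15 [0.66, 1.65]), and VWA1 (111 against 54.6 CPM, 1.02 [0.72, 1.32]) were the higher genes. THBS4 (33 against 99.8 CPM, -1.59 [-2.0, -1.2]), OGN, osteoglycin (528 against 1589.9 CPM, -1.59 [-1.69, -1.49]), and SMOC1 (31.5 against 79.8 CPM, -1.34 [-1.77, -0.93]) led the lower genes. In muscle-like cells SRPX (88.1 against 29.1 CPM, 1.6 [1.31, 1.89]), MFAP2 (33.3 against 11.7 CPM, 1.5 [1.03, 1.98]) and PCOLCE (315 against 153 CPM, 1.04 [0.90, 1.17]) were the 3 higher of 26, where 3.28% of all genes were, and 0 were lower, where 3.76% were.

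Receptors for these proteins and the enzymes that make their sugar chains were counted in 2 further lists. Of the 23 matrix receptors in the files 16 were measured in trabecular meshwork-like cells, with 1 called each way (5.21% higher and 6.05% lower of all genes). CD44, the hyaluronan receptor, was higher (12.2 against 5.42 CPM, 1.17 [0.70, 1.66]) and ITGA2, an integrin chain for collagen and laminin, lower (3.47 against 11.2 CPM, -1.69 [-2.23, -1.17]). In stromal fibroblast-like cells DDR2, a collagen receptor, was the 1 lower of 10 (116 against 248 CPM, -1.1 [-1.32, -0.88]), where 6.34% of all genes were. In muscle-like cells SDC2, syndecan 2, was the 1 higher of 11 (169 against 83.6 CPM, 1.01 [0.83, 1.2]), where 3.28% were. Of 27 genes of glycosaminoglycan synthesis 15 were measured in the meshwork class, with 1 higher (5.21% of all genes) and 2 lower (6.05%). CHST15, a chondroitin sulphotransferase, was higher (44.7 against 17.1 CPM, 1.38 [1.12, 1.65]), while CHPF, a chondroitin polymerising factor (99 against 245 CPM, -1.31 [-1.41, -1.21]), and NDST1, of heparan sulphate synthesis (5.08 against 10.2 CPM, -1.0 [-1.48, -0.53]), were lower. In the stromal class DSE, which makes dermatan sulphate, was the 1 lower of 11 (19.8 against 39.9 CPM, -1.01 [-1.57, -0.48]), where 6.34% of all genes were.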

How the data were processed

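Single-cell 3-prime RNA libraries of trabecular meshwork were analysed, 1 per group. The deposited values were counts, UMIs per gene and barcode as whole numbers without normalization; the authors made them with Cell Ranger, version 6.0.0 per the file headers and 4.0 per the submitters' processing notes, which also list Seurat 3.0. The genome build was not given in the sources used here. The matrices held 10624 glaucoma barcodes (38765808 UMIs) and 7028 normal barcodes (25042621 UMIs).

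Cells with at least 500 genes and under 20% mitochondrial UMIs were taken, and Scrublet, run on these cells, then removed 296 and 45 doublets. Both libraries were clustered together with scanpy 1.11.5 (scaling to 10000 UMIs, 2000 variable genes, 30 components, 15 neighbours, Leiden resolution 1, seed 1) into 25 clusters, without the 35 genes. Clusters were named from marker lists, by at least 3 markers 2-fold above the median cluster. UMIs were summed per class and library, as CPM with exact Poisson intervals; ratios have exact conditional binomial intervals, all 95% and for counting error only. Classes needed 50 kept cells in each library and genes 100 UMIs to be compared. The ratio script was tested on simulated data.

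All 35 genes are named, each in its highest class and in each compared class where it was called, with the 3 largest other matrix genes in each direction in 3 classes. The 35 genes and the lists were chosen with earlier results of these data known. Alternatives changed doublets, filters, clustering, cluster weights, scaling, depth and single barcodes. Leaving out clusters 2 or 19, or adding cluster 9, was chosen after seeing the data. Features without a symbol (7594) were not used in lists. Sequences were not used here.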

Additional observations from a re-analysis of the deposited data

Results flagged for a closer look

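Members whose ratio was called in opposite directions in 2 classes are listed here; the difference between the classes was not tested. DCN was higher in the glaucoma library in muscle-like cells (log2 ratio 2.51) and lower in myelinating Schwann cell-like cells (-2.73), and FBLN1 likewise (2.54 and -2.45). FBLN5 was higher in muscle-like cells (1.49) and lower in vascular endothelium-like cells (-1.12). MGP was higher in T or NK cell-like cells (2.82) and lower in myelinating Schwann cell-like cells (-1.77). In muscle-like, T or NK cell-like and myelinating Schwann cell-like cells the summed meshwork markers differed in the same direction as these genes, with 4220 against 2041 CPM, 1097 against 239 CPM and 980 against 1914 CPM. Their part in the opposite calls was not tested. MGP in myelinating Schwann cell-like cells turned to 0.18 with the libraries clustered separately, and FBLN5 in muscle-like cells to -0.20 with equal cluster weights.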

How the results depend on the processing

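No paired analysis was possible because each group has 1 library, and for the same reason no replicate could be left out. Of 73 pairs of a member and a class or cluster with a call, 47 kept it in every alternative that gave a value, and 4 changed direction under at least 1. Pairs with a cluster met only 1 to 3 alternatives, and pairs with a class 6 to 11. Some clusters are a whole class and so count under both names, and a lower UMI minimum cannot undo a call. The 47 of 73 is therefore no measure of how stable the class calls are. The reversed values were VCAN in trabecular meshwork-like cells (0.45) and DCN in macrophage-like cells (0.0309) with doublets kept, FBLN5 in muscle-like cells (-0.20) with equal cluster weights, and MGP in myelinating Schwann cell-like cells (0.18) with the libraries clustered separately. In trabecular meshwork-like cells the number of called members, 9, became 5 with doublets kept, 5 with equal cluster weights, 5 with cells thinned to 1000 UMIs and 4 without cluster 2. Their median of -0.51 became 0.037 with doublets kept, a reversal, -0.15 under the stricter cell filter, -0.12 with members allowed among the clustering genes, -0.14 with equal weights, -0.0235 without cluster 2 and -0.12 with cluster 9 added. In muscle-like cells the 7 called became 2 with equal weights, 2 thinned, 4 without cluster 19 and 13 with a minimum of 20 UMIs, which tests more genes. Their median of 0.74 became 0.0647 with equal weights and 0.10 thinned. The stromal median became -0.87 with the libraries clustered separately, and its 8 calls ranged from 6 to 9. The highest class was kept for 30 to 35 of the 35 genes. Values within single clusters were not recomputed under other clusterings. Except where an alternative tests fewer or more genes or cells, the cause was not tested. Members with under 100 UMIs, among them ELN, OPTC and LOXL1, are beyond this depth.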

Other observations

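Lymphatic-type endothelium-like cells, whose normal library had 33 cells, were not compared but gave the highest FN1, LAMA4, EFEMP1 and POSTN. LAMC1 was at 84.5 [72.2, 98.2] against 201 [119, 318] CPM there, NID1 at 94.9 [81.9, 109] against 157 [85.7, 263] CPM and SPARC at 1797 [1739, 1856] against 2171 [1876, 2499] CPM.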
